A study of Mus musculus with 2 samples.

Results

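The 67 replication-dependent histone genes described here were measured in the facial prominence of mouse embryos at embryonic day 14.5, and a single gene, Hist1h2ap, made up more than all the others together. The members were taken by name: every gene in both gene tables whose Ensembl identifier carries a symbol from Hist1h to Hist4h in GENCODE M21, which gave 67 of 43346 Ensembl genes. They fell into 6 linker H1 genes, 20 H2A, 16 H2B, 12 H3 and 13 H4 genes, 3 of them annotated as pseudogenes (Hist1h2aj, Hist1h2al and Hist3h2bb-ps). By symbol 54 belonged to Hist1, all on chromosome 13, 9 to Hist2 on chromosome 3, 3 to Hist3 on chromosome 11 and 1 to Hist4 on chromosome 6. Another 3 symbols of the same pattern (Hist2h2bb, Hist1h2bm and Hist1h2bh) were not analysed here.

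The series holds total RNA of strain B6NCrl embryos in 1 group of 2 biological replicates, with no treatment, genotype or second condition. Each sample is labelled as the face of one pup, collected on its own day, and is elsewhere labelled as pooled from both sexes. Libraries were made from 10 ng of RNA over a size limit by a SMART-seq protocol with added spike-in RNAs, and they hold 30919488 (replicate 1) and 37738872 (replicate 2) expected counts, the authors' estimated reads per gene. Levels are TPM, a transcript's abundance after division by effective length and scaling to a fixed total. With 2 libraries no test across embryos was made; values are given for replicate 1 and then replicate 2. Counting error is all that the intervals and floors take in. All 6 markers of facial mesenchyme reached 1 TPM in both libraries, led by Prrx1 at 80.14 and 78.76 TPM.

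A nucleosome wraps DNA around a core of H2A, H2B, H3 and H4, and H1 binds the linker DNA between cores. Cells that copy their DNA need new histones in bulk, and clustered, intronless genes supply them in S phase. Their mRNAs are known for ending in a short hairpin, the stem-loop, in place of a poly(A) tail. The stem-loop binding protein holds that hairpin through processing, translation and decay. Replacement histones such as H3.3 and H2A.Z come from separate genes with ordinary polyadenylated mRNAs and are made outside S phase too.

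The stem-loop region of the leading member of each class that carries these letters is printed here, with Hist1h2ae and the near copy Hist1h2ao beside Hist1h2ap because the H2A results turn on these genes. The sequences come from GENCODE M21 transcripts (GRCm38). Capitals mark both arms of the stem, with the loop between them, and each line starts 12 bases before the stem.
Hist1h2ap: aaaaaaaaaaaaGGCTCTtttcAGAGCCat
Hist1h2ao: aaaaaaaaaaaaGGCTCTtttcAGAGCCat
Hist1h2ae: aaaaaaaacaaaGGCTCTtttcAGAGCCat
Hist1h1e: caacaacccaaaGGCTCTtttcAGAGCCac
Hist3h2ba: ccccaacccaaaGGCTCTtttcAGAGCCac
Hist1h3d: ttggaccccaaaGGCTCTtttcAGAGCCac
Hist1h4d: ccaaaaaccaaaGGCCCTtttcAGGGCCac
The H4 gene differs from the others in its arms, and Hist1h2ap and Hist1h2ao have an unbroken run of 12 A directly before the stem.

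The stem-loop letters were found in an M21 transcript of 44 of the 67 members, against 7 of 42395 other Ensembl genes of the tables with an M21 transcript (0.0165%). Of these 7, the replacement histone genes H2afx and H2bfm are histone genes, named here after the search. Many models of the other members stop near the end of the coding part. Among the 47 coding members whose model runs 60 bases or more past the coding part, 43 hold the stem-loop: 4 of 4 H1, 11 of 11 H2A, 8 of 12 H2B, 9 of 9 H3 and 11 of 11 H4 genes. The 4 without it are the H2B genes Hist1h2bc, Hist1h2bq, Hist1h2br and Hist2h2be, named after their sequences were seen. In all, 8 different stem-loop words were found, and the most common, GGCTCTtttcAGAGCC, stands in 24 members. The 12 H4 members with a stem-loop have arms GGCCCT or GGTCCT, which no member of another class has.

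Hist1h2ap encodes a core H2A. Its level was 2228.54 TPM (replicate 1) and 2288.90 TPM (replicate 2), from 16830.33 and 22340.01 expected counts. It lies on the minus strand of chromosome 13, 21833026 to 21833507 (mm10), and is a gene of 1 transcript of 482 bases. Both libraries gave nearly the same level, and Hist1h2ap stood in 29th place among all Ensembl genes by mean TPM. It took 68.2% and 69.7% of the members' summed TPM, and 62.8% and 64.4% of their expected counts. Its level was 9.33 and 11.6 times that of the next member, Hist1h4d. All 67 members had 0.0867% and 0.0920% of the expected counts of the library, and without Hist1h2ap the other 66 had 0.0323% and 0.0328%.

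Hist1h2ap has a near copy, Hist1h2ao, on the same chromosome. Of the 50-base words of the Hist1h2ap transcript 93.1% also stand in that of Hist1h2ao, and both encode the same 130-residue protein. Hist1h2ao was listed at 0 expected counts in both libraries, with posterior mean counts of 12.55 ± 13.91 and 12.94 ± 12.65 (posterior SD within a library). The deposited estimates thus place nearly all reads of the pair on one of the copies, and the sum of the pair is the safer value. As a pair they had 2228.54 and 2288.90 TPM.

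Upstream of the Hist1h2ap transcript start, RefSeq (GRCm38.p6) gives these 218 bases, chr13:21833508-21833725 on the minus strand, shown because the member leads the whole set. Capitals mark CCAAT on either strand.
Hist1h2ap: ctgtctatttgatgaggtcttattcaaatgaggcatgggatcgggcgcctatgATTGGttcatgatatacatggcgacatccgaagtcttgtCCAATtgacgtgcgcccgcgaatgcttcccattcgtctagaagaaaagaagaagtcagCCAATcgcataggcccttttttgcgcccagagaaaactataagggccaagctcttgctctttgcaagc
The stretch holds 3 CCAAT and no TATAAA.

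Across the set, promoter windows of 300 bases (250 before to 50 after the RefSeq start) matched for 59 of 67 members. TATAAA stood on either strand in 35 of these 59 (59.3%), against 13.6% of all 32851 promoters in the table. CCAAT, the word bound by NF-Y, stood on either strand in 50 of 59 (84.7%), against 37.4%, and 69.5% of members held it more than once, against 11.7%. CCAAT was in all 6 H1, 18 H2A, 13 H2B and 10 H3 windows and in 3 of 12 H4 windows. Windows of neighbouring H2A and H2B genes can overlap, as those of Hist1h2aa and Hist1h2ba do, so 1 match can count for both genes. The counts over members and classes are therefore not independent. These are matches of letters in one window, not measured binding.

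**Figure D1:**
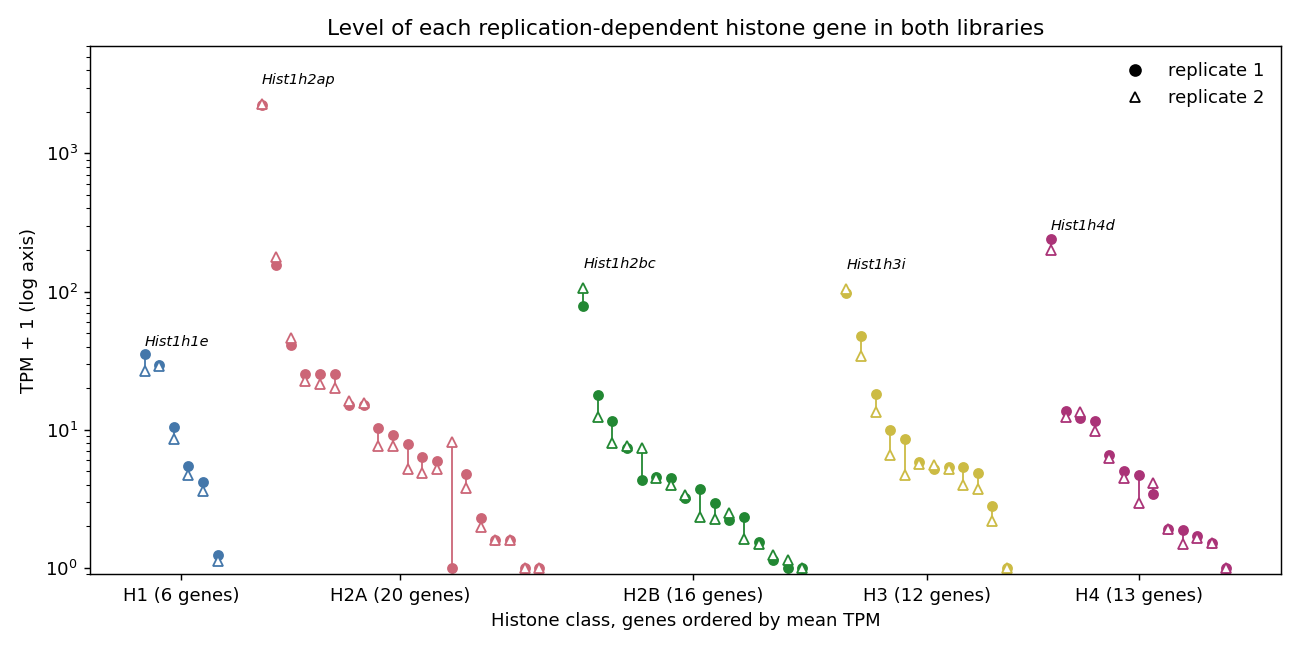
Level of each of the 67 members as TPM + 1 on a log axis, grouped by histone class and ordered by mean TPM, with a filled circle for replicate 1 and an open triangle for replicate 2. One H2A gene, Hist1h2ap, stands at a mean of 2259 TPM, and the leaders of the other classes lie between means of 29.9 (Hist1h1e) and 218 TPM (Hist1h4d); Hist1h2ah is the member with the longest line between the libraries.

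Most members were detected at low levels. A level of 1 TPM or more in both libraries was reached by 49 of 67 members, against 34.9% of all Ensembl genes. Among the protein-coding ones it was 48 of 64, against 63.9% of protein-coding genes. The median over members of the mean level was 4.28 TPM, 4 members had a mean of 100 TPM or more, 18 had 10 or more and 16 were below 1. The 5 highest members took 85.6% and 87.5% of the members' TPM. In these bulk libraries, fewer cells in S phase, less histone RNA per cell and weaker capture of RNA without a poly(A) tail cannot be told apart.

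The linker histone genes were the lowest class by sum, with 80.01 and 67.61 TPM and 5 of its 6 genes were at 1 TPM or more in both. Hist1h1e had 34.24 and 25.49 TPM, and Hist1h1c had 28.31 and 28.09 TPM. Hist1h1b followed at 9.53 and 7.62 TPM. The leading pair did not keep its order, since Hist1h1e was above Hist1h1c in replicate 1 and below it in replicate 2.

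The H2A genes summed to 2564.75 and 2639.82 TPM, and 14 of 20 reached 1 TPM in both. Without Hist1h2ap the remaining 19 summed to 336.21 and 350.92 TPM, which is still the largest class sum in both libraries. Hist1h2ae, at 154.68 and 177.13 TPM, encodes the same protein as Hist1h2ap, and its level was lower by 14.4 and 12.9 times. In the Hist2 cluster Hist2h2aa2 had 39.83 and 45.22 TPM and its copy Hist2h2aa1 had 14.08 and 15.06 TPM. Every 50-base word of Hist2h2aa2 stands in Hist2h2aa1, and their posterior SDs were 9.30% to 24.6% of the counts, so the pair is best read by its sum of 53.91 and 60.28 TPM. Hist3h2a, in the Hist3 cluster, had 24.21 and 21.48 TPM, and Hist2h2ac had 8.13 and 6.69 TPM.

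The H2B genes summed to 131.59 and 150.97 TPM, with 11 of 16 at 1 TPM in both libraries. Hist1h2bc had 77.4 and 105.11 TPM, which was 58.8% and 69.6% of the class. Its M21 model, longer than that of the tables (1156 against 736 bases), holds no stem-loop letters. Hist3h2ba had 16.83 and 11.34 TPM and Hist1h2bk 10.58 and 7.04 TPM. Hist2h2be, another gene whose M21 model holds no stem-loop letters, had 6.32 and 6.66 TPM. As proteins, H2A and H2B enter the nucleosome in equal numbers as a dimer. Their summed TPM stood at 19.5 and 17.5 to 1, or at 2.55 and 2.32 to 1 without Hist1h2ap. These are RNA values and do not measure the proteins.

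The H3 genes summed to 200.67 and 178.64 TPM, and 11 of 12 reached 1 TPM in both libraries. Hist1h3i had 97.3 and 103.27 TPM, Hist2h3b 46.41 and 33.39 TPM and Hist1h3d 17.03 and 12.4 TPM. Hist2h3c2 had 4.34 and 4.21 TPM. The 12 genes encode only 2 proteins of 136 residues that differ at 1 residue. The protein of Hist1h3a, Hist1h3g, Hist1h3h and Hist1h3i, known as H3.1, was encoded by 110.24 and 115.19 TPM, and that of the 8 other genes, known as H3.2, by 90.43 and 63.45 TPM. The first sum was the higher one in both libraries, by a smaller margin in replicate 1.

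The H4 genes summed to 292 and 246.6 TPM, with 8 of 13 at 1 TPM in both libraries. All 13 encode one protein of 103 residues. Hist1h4d alone had 238.84 and 197.63 TPM, which was 81.8% and 80.1% of the class. Hist1h4c had 12.57 and 11.38 TPM, Hist1h4n 11.25 and 12.39 TPM, and Hist2h4 of the Hist2 cluster 5.56 and 5.28 TPM. Unlike Hist1h2ap, Hist1h4d shares few words with other genes, 10.2% of those of an M21 model that is longer than the tables' (1138 against 393 bases), and its posterior SD was 0.0404% and 0.0371% of its count.

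**Figure D2:**
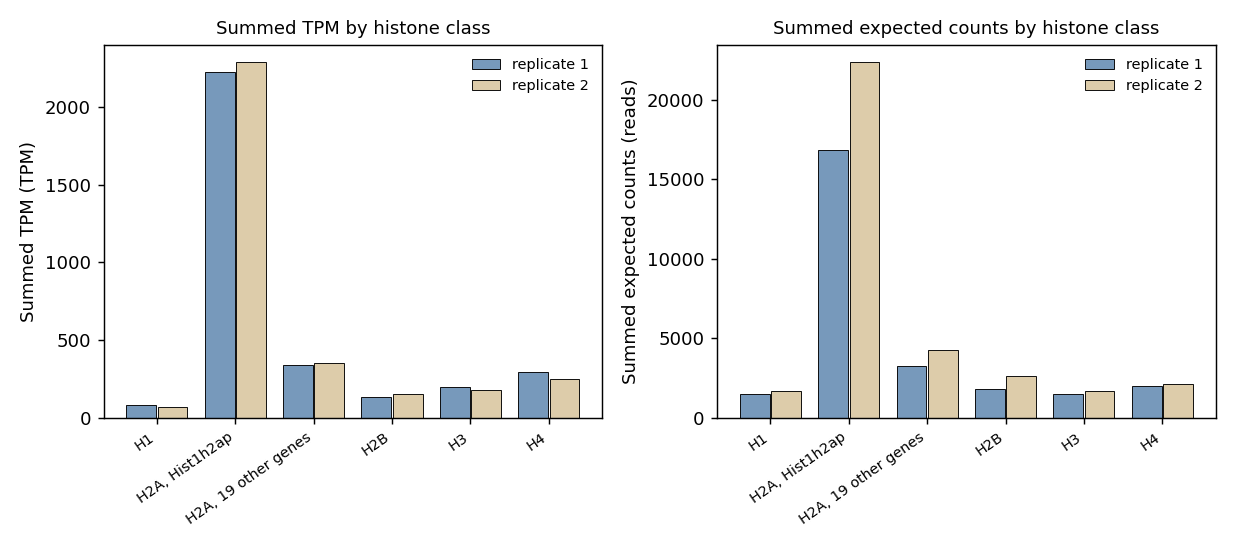
Sum over the genes of each histone class in TPM (left) and in expected counts (right), with 1 bar per library, both axes starting at 0 and H2A split into Hist1h2ap and its 19 other genes. Hist1h2ap alone exceeds the sum of all other members in both libraries and in both units.

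By cluster, Hist1 took 94.9% and 95.4% of the members' TPM. The 9 Hist2 genes summed to 125.26 and 117.1 TPM and the 3 Hist3 genes to 41.19 and 33.06 TPM. The only Hist4 gene, Hist4h4, had 0.88 and 0.48 TPM. The median gene had a mean of 3.71 TPM in Hist1 and 6.49 TPM in Hist2, so the lead of Hist1 in the sum rests on its number of genes and on a few high ones.

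The 5 members with 0 expected counts in both libraries were Hist1h2aa, Hist1h2ba, Hist1h2ao, Hist2h3c1 and Hist1h4m. Hist1h2aa and Hist1h2ba are the testis-type H2A and H2B. A count of 0 allows up to 0.523 and 0.405 TPM for Hist1h2aa, taking 3 counts as the floor, and up to 0.534 and 0.413 TPM for Hist1h2ba. Hist1h1t, the testis-type H1, had 3 and 2 counts, or 0.24 and 0.12 TPM. Of the 6 germ line markers none reached 1 TPM in both libraries; Ddx4 was the highest, at 1.6 and 0.75 TPM, and Tnp1 had 0 counts. The remaining 3 of the 5 share most of their words with another gene: Hist1h2ao with Hist1h2ap, Hist1h4m with Hist1h4n (89.8%), and Hist2h3c1 with Gm20634 (100%), a processed transcript that is no member and had 2.42 and 2.05 TPM. Their 0 can be a result of how reads were shared out.

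Near copies limit the values of many members. More than 50% of the 50-base words stood in another gene for 33 of 67 members, with a median of 49.7%, and 4 members shared none. These shares are of M21 transcripts, and only 46 of 67 members have the counted length there. Hist1h1d, for example, has 7425 bases against 744, so shares in the counted models can differ. The posterior SD was over 10% of the count in both libraries for 31 members and 0 in both for 6, whose counts were whole numbers. Hist1h2ah had 0 counts in replicate 1 and 55.33 in replicate 2, with posterior means of 13.27 ± 14.19 and 60.63 ± 21.62. It was singled out after its values were seen. Together with its near copies Hist1h2ai, Hist1h2aj and Hist1h2an it had 28.23 and 32.69 TPM, a sum that moved far less than the single gene. The Hist2h3 copies Hist2h3b, Hist2h3c1 and Hist2h3c2 summed to 50.75 and 37.6 TPM. That sum leaves out Gm20634, which holds 79.7%, 100% and 63.5% of their words and 89.4% of those of Hist2h2aa1.

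Runs of A were looked at after the levels were known. In 27 members the M21 transcript has the length given in the tables and holds the stem-loop, so the stretch before the hairpin lies in the counted model. Hist1h2ap is one of them, with 12 A directly before its stem-loop and a model that ends 3 bases after it. Hist1h2ao has the same run, but its 0 counts cannot be separated from those of Hist1h2ap. In the 25 others, 0 to 5 A stand directly before the stem-loop, with a median of 3, and the longest run anywhere in the transcript is 3 to 6 bases. Hist1h2ae, the next highest H2A, has 8 A a little further up, as printed above. Its M21 model is longer than that of the tables, 704 against 460 bases, so this run need not lie where reads were counted. Apart from Hist1h2ap and Hist1h2ao, the same holds for the other members with 8 or more A. These are Hist1h2ac (15 A, mean of 3.305 TPM), Hist1h2be (11 A, 1.6 TPM), Hist1h2bc (8 A, 91.3 TPM) and Hist1h1d (8 A, 4.1 TPM). The longest run and the mean TPM had a Spearman rho of -0.017 over all 67 members. It was -0.091 over the 46 of the same length. Both sets go beyond the 27 members above and take Hist1h2ao at 0 TPM. Neither a link nor the lack of one can be read from these values. How cDNA synthesis was primed is not given in the sources used here, and the part of these runs in the levels was not tested.

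**Figure D3:**
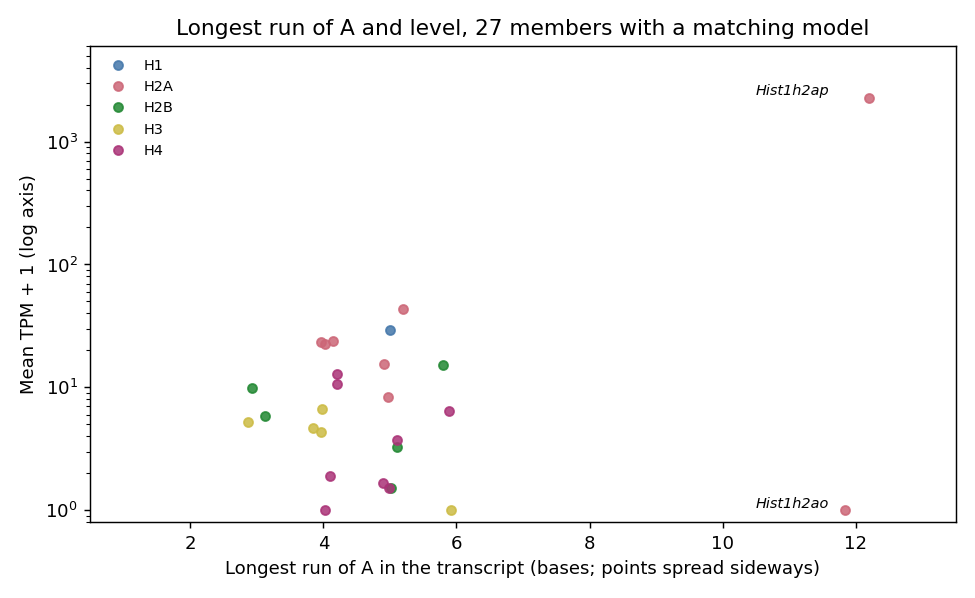
Longest run of A in the transcript in bases, points spread sideways, against mean TPM + 1 on a log axis, for the 27 members with a stem-loop and the same transcript length in M21 and the tables, coloured by class. Hist1h2ap and its near copy Hist1h2ao stand at 12, apart from the other 25 at 3 to 6; the pair's reads are listed on Hist1h2ap alone.

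H2A and H2B genes often stand head to head, with both promoters in a short shared stretch, and 13 such pairs were found with 173 to 306 bases between the starts (median 251). The H2A gene was the higher partner in both libraries in 8 pairs and the H2B gene in 3. Several partners are near copies, so their values rest on how reads were shared out: Hist1h2ao with Hist1h2ap, and Hist1h2br with Hist1h2bq, whose sum was 1.35 and 0.78 TPM. In 4 pairs the partners were 4-fold or more apart on mean TPM + 1. Hist1h2ap, at 2228.54 and 2288.90 TPM, faces Hist1h2br at 0 and 0.15 TPM across 236 bases, and Hist1h2ae faces Hist1h2bg at 3.54 and 3.44 TPM. Hist3h2a faces the pseudogene Hist3h2bb-ps at 0.15 and 0.24 TPM. Hist1h2bc, the leading H2B, is the other way round, with Hist1h2ac at 3.82 and 2.79 TPM. Over the 13 pairs the mean TPM of the partners had a Spearman rho of -0.03, a description over pairs that share both libraries.

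**Figure D4:**
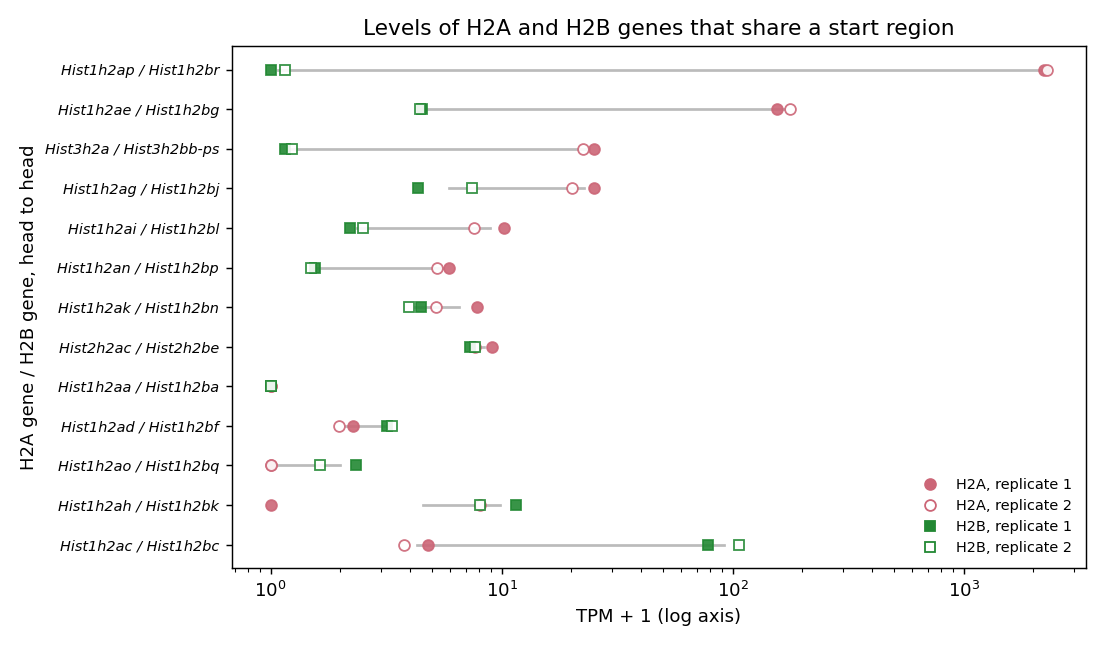
Level of the H2A gene (circles) and the H2B gene (squares) of each of 13 head-to-head pairs as TPM + 1 on a log axis, filled for replicate 1 and open for replicate 2, with a grey line between the means. The partners are far apart in the pairs of Hist1h2ap, Hist1h2ae, Hist3h2a and Hist1h2bc and within a few TPM of each other in several others.

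The libraries were compared gene by gene. None of the 28 members with a mean of 5 TPM or more passed 2-fold in either direction on log2(TPM + 1), against 0.714% of the 11482 genes past that filter, so a count of 0 is near the background. Of the 28, 19 were lower in replicate 2, against 80.8% of all such genes, and their median log2 ratio was -0.24 against -0.15. Relative to the median gene, 12 lay above and 16 below. The share of members that was lower, 19 of 28, was not above that background.

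Single members differed beyond counting error in both directions. Hist1h2bc had 77.4 and 105.11 TPM, a CPM (counts scaled to equal library totals) ratio of replicate 2 to replicate 1 of 1.44 (exact 95% counting interval 1.33 to 1.56). Hist1h3b had 7.57 and 3.74 TPM, a ratio of 0.525 (0.361 to 0.759), the lowest of the 28. Among members with a mean of 30 or more counts the lowest ratio was 0.486 (0.303 to 0.766) for Hist1h2bq, at 1.35 and 0.63 TPM. With its near copy Hist1h2br the ratio was 0.603 (0.393 to 0.931). The highest was 2.05 (1.26 to 3.44) for Hist1h2bj, at 3.35 and 6.44 TPM. For Hist1h2ap the ratio was 1.09 (1.07 to 1.11). Of the 28 members the interval lay above 1 for 5, below 1 for 8 and held 1 for 15. The same count was not made over all genes, so these numbers have no background beside them. A ratio of 1 stands for an equal share of the library total, not for the median gene. Counting intervals leave out the spread between embryos and between library preparations, which 1 library per replicate cannot show. They also leave out the error of sharing reads among near copies. The posterior SD was 12.49% and 17.97% of the count for Hist1h3b and 19.77% and 9.698% for Hist1h2bj. For Hist1h2bc it was 0.907% and 0.551%. Whether the ratios of Hist1h3b and Hist1h2bj go beyond that error was not tested.

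**Figure D5:**
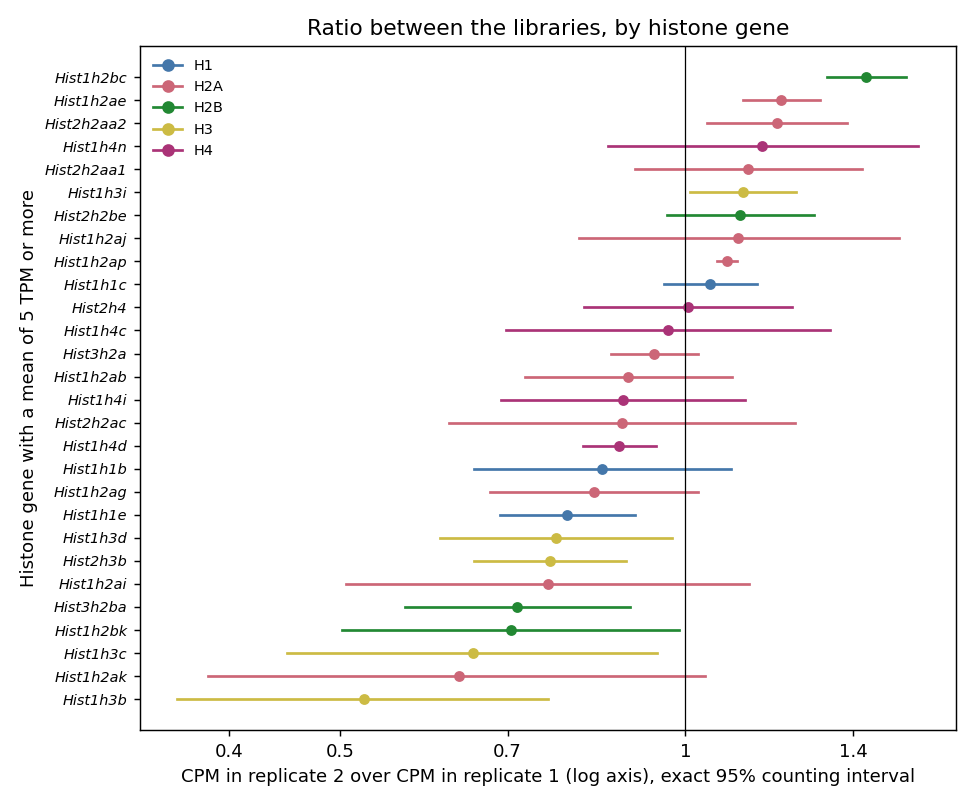
CPM in replicate 2 over CPM in replicate 1 on a log axis, with exact 95% counting intervals, for the 28 members with a mean of 5 TPM or more, coloured by class. Hist1h2bc has the highest ratio at 1.44 and Hist1h3b the lowest at 0.525, and 15 of the 28 intervals hold 1. The same count over all genes was not made.

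Other cell markers moved between the libraries too. All 3 erythroid markers were higher in replicate 2, with a summed level of 6145.1 and 8003.84 TPM, and all 6 facial mesenchyme markers were lower, with 233.13 and 207.56 TPM. All 16 genes of the S phase list, which covers DNA replication and division, were lower in replicate 2. The share of all genes with a mean of 5 TPM or more that were lower was 80.8%; the erythroid markers went the other way. Their part in the ratios of the histone genes was not tested.

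The S phase list was fully expressed, 16 of 16 genes at 1 TPM in both libraries. Its highest members were Pcna, the replication clamp, at 192.15 and 168.48 TPM, the helicase subunit Mcm6 at 174.31 and 140.32 TPM, and Top2a, a topoisomerase of dividing cells, at 162.24 and 137.02 TPM. Cdc6, a licensing factor, was the lowest at 18.48 and 17.12 TPM. Of the 67 members, Hist1h2ap, Hist1h4d and Hist1h2ae alone had a mean above that of Top2a.

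The genes that process histone mRNA were expressed at 1 TPM in both libraries in 15 of 17 cases. Slbp, the stem-loop binding protein, had the highest level at 161.79 and 145.12 TPM. Ncbp2, a subunit of the cap-binding complex, had 88.27 and 73.6 TPM, and Cpsf3, the endonuclease that cuts the mRNA end, had 70.91 and 57.79 TPM. Casp8ap2, which joins Lsm11 in the cleavage complex, had 43.53 and 35.29 TPM. The other two were Zfp473, at 1.37 and 0.85 TPM, named after its values were seen, and Rnu7, the U7 RNA that pairs with histone pre-mRNA, which is listed at 0 with an effective length of 0 and so could not be measured here.

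All 12 genes of the transcription list reached 1 TPM in both libraries. Cdk2, the kinase that acts with cyclin E, had 81.95 and 70.86 TPM, the NF-Y subunit gene Nfyc 81.65 and 68.76 TPM, and Ccne1, cyclin E1, 67.21 and 56.11 TPM. Npat, the coactivator of histone genes that cyclin E and Cdk2 phosphorylate, had 18.36 and 15.65 TPM. E2f1, a factor of S phase entry, was the lowest at 8.48 and 6.72 TPM.

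All 18 histone chaperone genes were expressed as well. Rbbp4, a subunit of the assembly factor CAF-1, had 255.46 and 227.51 TPM, Ssrp1, a subunit of FACT, 217.18 and 164 TPM, and Tonsl, which binds new histones at replication forks, 179.26 and 147.45 TPM. Hira, the chaperone of H3.3, was the lowest at 8.01 and 5.64 TPM.

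Replacement histone genes reached 1 TPM in both libraries in 11 of 16 cases. The median of the 16 was 104 TPM, against 4.28 TPM over the members. H3f3a and H3f3b, both encoding H3.3, had 1832.04 and 1596.33 TPM and 1353.9 and 998.77 TPM, and H2afz, encoding H2A.Z, had 1132.78 and 1023.09 TPM. The lowest, H1foo, H1fnt, H2afb1 and H2bfm, had 0 counts in both. For H3 the replacement genes H3f3a, H3f3b and Cenpa, the centromeric H3, summed to 16.7 and 15.3 times the TPM of the members. For H1 they summed to 2.12 and 2.06 times. For H2A the ratio was 0.789 and 0.676, and 6.02 and 5.09 without Hist1h2ap, so that gene alone set which kind of H2A had the larger summed TPM. The replacement sum for H2A includes H2afx, at 184.25 and 154.68 TPM, in which the stem-loop letters were found. That ratio is thus not a clean split by mRNA end. Whether the libraries captured polyadenylated and stem-loop mRNAs equally was not tested, so these ratios need not be those of the tissue.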

How the data were processed

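The deposited expected counts are reads per gene and transcript as estimated by the authors, unscaled, per the file headers. TPM and FPKM were deposited beside them by the authors, as were posterior mean counts with their SD and, for transcripts, the percent of the gene's TPM, per the file headers. The companion text of each library names mm10 and GENCODE M4; no aligner, quantifier version or strand setting is given in the sources used here. Symbols, positions and transcript sequences came from GENCODE M21 and promoters from RefSeq GRCm38.p6. Of the members, 46 of 67 have the same transcript length in M21 as in the tables.

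Computed here were sums, shares, log2(TPM + 1) ratios, which understate changes of low genes, exact 95% intervals of CPM ratios, 50-base word sharing, translated coding parts and motif matches. Zcchc6 was matched as Tut7. Depth (30919488 and 37738872 counts) and effective length set the TPM that a fixed floor of 3 counts stands for. Python 3.11.15, pandas 2.3.3 and scipy 1.17.1 made all values, and DESeq2 1.42.0 and edgeR 4.0.16 gave scaling factors only, from rounded counts.

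Members, lists and the naming rule were chosen with earlier results of these data known. The rule names the 3 highest genes of each class, the largest ratios in each direction, members of Hist2 to Hist4 at 1 TPM, testis types, members at 0, and the highest and lowest list genes. Alternatives were other thresholds, pseudocounts, filters, units and scalings and each library left out; the share of Hist1h2ap and its removal were added after seeing the data.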

Additional observations from a re-analysis of the deposited data

How the results depend on the processing

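Class sums from transcript-level TPM or rescaled FPKM equal the gene sums by construction, and with 2 libraries leaving out either keeps a value within 1 SD by construction, so neither tests stability. With 5 TPM as the threshold 26 members counted as expressed in both libraries instead of 49. With a mean of 1 TPM, or with no filter on low values, 1 member passed 2-fold between the libraries, Hist1h2ah, instead of 0. It is a gene with near copies. The members' share of expected counts, 0.0893% on average, was 0.0934% over Ensembl genes alone, 0.328% of TPM, and 0.0325% without Hist1h2ap. The share of the members' TPM taken by Hist1h2ap, 68.9% on average, was 63.6% in expected counts; posterior mean counts over effective length gave 68.8%. Leaving out either replicate gave 50 to 51 members expressed, a share of counts of 0.0867% to 0.0920%, and 68.2% to 69.7% for Hist1h2ap. Scaling moved the median gene from -0.15 to -0.00 (log2) with edgeR or DESeq2 factors, and the members' median to -0.08 and -0.10; 16 of 28 members were then lower in replicate 2. No paired analysis was possible because the series has 1 group. Depth limits members with few counts, and near copies limit single values at any depth.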
